A study of Mus musculus with 3 samples.

Results

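Among the Twist1 ChIP-seq peaks of mouse PNST cells, 354 regions lay within 50 Kb of a gene and were also called as peaks in E12.5 ECCs and in E10.5 limb buds. They are referred to here as the shared regions. They were chosen by the measured peak positions: a PNST peak on an assembled chromosome counted when an ECC peak and also a limb bud peak covered at least 5% of its length, and when the nearer of its neighbouring genes was at most 50 Kb away. The 354 regions were 4.88% of the 7259 placed PNST peaks (95% Wilson interval 4.40 to 5.40) and 9.53% of the 3714 placed PNST peaks near a gene (8.63 to 10.52). In total they carried 368 gene names.

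Twist1 occupancy was measured in 3 samples, all with the strain FVB/N in their labels, with a Twist1 antibody from Sigma. The ECC sample held atrioventricular canal endocardial cushion tissue of embryos at E12.5, the limb sample held forelimb buds at E10.5, and the PNST sample was a cultured mouse cell line from peripheral nerve sheath tumors. Embryonic tissue was pooled from several litters and PNST cells from more than 1 culture plate, so each tissue had 1 sample and no replicates. No difference between tissues could therefore be set against the spread between samples, and no test was made.

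Twist1 belongs to the basic helix-loop-helix family of transcription factors and binds DNA as a dimer at E-box sites (5’-CANNTG-3’). It is known for keeping mesenchymal precursor cells proliferating and migratory, in the endocardial cushions that form the heart valves, in the outgrowing limb bud, and in tumor cells that have lost epithelial character. The study asked which of its binding regions are common to these cell types, and the shared regions are the data for that question before any filter on gene expression.

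The sequences of the shared regions fell into a few recurrent kinds, and examples are shown because the values described below follow these kinds. All sequences are read from mm9 on the forward strand, 5’ to 3’. The regions with the highest fold enrichment in PNST cells held the vertebrate telomeric hexamer (TTAGGG, or CCCTAA on the other strand) in uninterrupted arrays. The region of Ror2, a receptor tyrosine kinase for Wnt ligands, and that of Kcnh1, a voltage-gated potassium channel, are examples.

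A second kind consisted of other tandem repeats, shown for a region near Smok4a, which is named for a sperm motility kinase, and for a region of Mid1, a microtubule-associated ubiquitin ligase. Capitals would mark E-boxes, and these examples hold none.

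Smok4a chr17:13744403-13744557: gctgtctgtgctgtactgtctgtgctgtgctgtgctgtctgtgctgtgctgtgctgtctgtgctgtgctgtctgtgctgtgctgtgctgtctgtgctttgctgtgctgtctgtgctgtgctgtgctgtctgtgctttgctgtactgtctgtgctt
Mid1 chrX:166438566-166438736: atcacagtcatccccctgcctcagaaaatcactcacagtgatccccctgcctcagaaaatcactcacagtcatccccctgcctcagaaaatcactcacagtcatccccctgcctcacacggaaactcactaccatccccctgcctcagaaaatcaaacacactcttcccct

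The regions of the other 4 genes that the study names for all 3 tissues are shown with E-boxes in capitals. Cd44 encodes a hyaluronan receptor of the cell surface, Chst11 a chondroitin sulfotransferase, Litaf a membrane protein of late endosomes and lysosomes, and Spata5 an AAA ATPase. E-boxes were found only in the Cd44 region among these 4. The study, in contrast, describes E-boxes in its binding regions of Ror2, Chst11, Spata5 and Litaf. By ChIP-qPCR it found those regions bound in every tissue, and binding at its shared Cd44 site was not detected. Products of the printed primers lay outside the shared regions described here, at distances given below.

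Cd44 chr2:102669452-102669630: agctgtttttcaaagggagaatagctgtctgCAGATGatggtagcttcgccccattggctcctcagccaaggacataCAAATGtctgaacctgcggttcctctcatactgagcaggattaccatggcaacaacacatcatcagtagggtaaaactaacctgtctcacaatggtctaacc
Chst11 chr10:82418008-82418128: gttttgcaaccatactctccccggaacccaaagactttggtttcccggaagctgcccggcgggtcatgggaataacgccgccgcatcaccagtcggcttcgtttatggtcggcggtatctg
Litaf chr16:10975082-10975370: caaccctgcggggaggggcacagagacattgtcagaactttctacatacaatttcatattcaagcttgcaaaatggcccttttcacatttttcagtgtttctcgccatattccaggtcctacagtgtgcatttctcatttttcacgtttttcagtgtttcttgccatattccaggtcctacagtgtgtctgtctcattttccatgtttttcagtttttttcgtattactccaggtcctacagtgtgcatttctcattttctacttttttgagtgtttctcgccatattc
Spata5 chr3:37380410-37380625: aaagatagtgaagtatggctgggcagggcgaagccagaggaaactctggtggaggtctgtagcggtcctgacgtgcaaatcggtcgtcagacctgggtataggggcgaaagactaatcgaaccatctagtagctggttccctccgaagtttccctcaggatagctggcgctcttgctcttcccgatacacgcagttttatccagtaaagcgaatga

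Many of the remaining regions held a stretch in common with other shared regions. The capitals mark a 20-base word held by 13 regions (Spata17), by 10 regions (Mospd3), by 8 regions (Csmd3) and by 7 regions (Wdr92), and each is shown in the shortest region that holds it.

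Spata17 chr1:188893089-188893166: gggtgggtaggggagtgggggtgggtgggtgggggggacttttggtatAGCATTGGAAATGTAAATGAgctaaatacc
Mospd3 chr5:138038737-138038813: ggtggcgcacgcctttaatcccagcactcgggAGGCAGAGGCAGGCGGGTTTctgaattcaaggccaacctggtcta
Csmd3 chr15:47371517-47371683: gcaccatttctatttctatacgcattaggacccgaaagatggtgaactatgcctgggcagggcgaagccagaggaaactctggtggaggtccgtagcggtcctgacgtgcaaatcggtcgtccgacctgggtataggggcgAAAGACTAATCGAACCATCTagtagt
Wdr92 chr11:17121274-17121405: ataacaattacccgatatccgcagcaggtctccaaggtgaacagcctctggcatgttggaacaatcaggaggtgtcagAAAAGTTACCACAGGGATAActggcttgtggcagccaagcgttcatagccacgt

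Few regions had a summit whose exact sequence occurs once in mm9, and such regions can still resemble other shared regions. The region of Btbd16 and Plekha1 is shown for its 2 E-boxes (capitals), and those of Cdk5rap2, a centrosome protein, and Pak3, a p21-activated kinase, for their high tag counts. The last 2 hold no E-box, and all 3 were chosen after their values were seen.

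Btbd16 and Plekha1 chr7:137977939-137978167: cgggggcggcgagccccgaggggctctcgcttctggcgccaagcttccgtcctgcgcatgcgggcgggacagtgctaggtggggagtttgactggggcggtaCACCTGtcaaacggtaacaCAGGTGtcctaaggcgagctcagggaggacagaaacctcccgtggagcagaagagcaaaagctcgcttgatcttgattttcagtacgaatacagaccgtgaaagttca
Cdk5rap2 chr4:70039126-70039291: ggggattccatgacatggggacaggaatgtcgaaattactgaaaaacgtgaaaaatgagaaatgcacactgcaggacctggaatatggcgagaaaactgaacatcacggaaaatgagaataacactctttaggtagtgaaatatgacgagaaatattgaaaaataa
Pak3 chrX:139917523-139917676: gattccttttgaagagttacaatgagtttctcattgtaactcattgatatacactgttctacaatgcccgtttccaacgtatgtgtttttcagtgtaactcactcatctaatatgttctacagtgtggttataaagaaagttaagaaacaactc

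Tags are mapped reads, and the deposited count is the number of tags within a peak, not scaled for the depth of the sample. The samples differed in depth, with 3149934 ECC tags, 14893391 limb bud tags and 11823220 PNST tags once repeated tags at a position had been removed. An ECC tag was therefore worth 0.317 RPM (tags per 1000000 filtered tags), a limb bud tag 0.0671 RPM and a PNST tag 0.0846 RPM. The weakest called peaks held 5 ECC tags, 8 limb bud tags and 7 PNST tags, and a region with less signal in any tissue was not detectable at this depth. Tags in different tissues were set side by side in RPM (the tag rate), with exact Poisson 95% intervals for named regions. These intervals and the Wilson intervals of shares cover counting error only.

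The deposited limb bud list, with 48965 peaks, was the longest. The list headers give more mapped tags than the reads stated in the study's text, and the limb bud list is several times longer than described there. Limb bud values below therefore hold for the deposited list and its header. With this list shortened to the length of the ECC list, by p-value and then tags, 332 regions met the rule and their median PNST over limb ratio was 0.685.

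The shared regions were stronger than other PNST peaks near a gene in their PNST values, and this is a description, since a peak called in each tissue has to pass the calling threshold in each. In PNST cells they held a median of 16 tags (range 7 to 813), against 8 tags in the 3360 other PNST peaks near a gene. In ECCs they held a median of 19 tags (5 to 1541), and in limb buds 33.5 (8 to 2406). Median fold enrichment over the local background was 26.6 in PNST cells, 52.9 in ECCs and 35.6 in limb buds, where the whole lists had medians of 15.2 for other PNST peaks near a gene, 26.5 for ECCs and 14.4 for limb buds. Of the 100 PNST peaks near a gene with the highest fold enrichment, 95 were shared regions, and of the 100 with the most tags, 66 were. At the other end, each tissue had shared regions at its minimum tag count.

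Overlap is part of the rule, so the positions of the peaks are a description. The median shared region was 154 bp long in PNST cells, and its counterparts were 179 bp in ECCs and 178 bp in limb buds. The median share of the PNST peak that was overlapped was 0.986 for ECCs and 0.968 for limb buds, and 305 of the 354 regions were overlapped over at least 50% of their length by both. A reciprocal overlap of 50% was reached by 214 regions. Sequence common to the peaks of all 3 tissues was present in 348 of the 354 regions. Peak summits of all 3 tissues fell within 10 bp of each other in 127 regions (35.9%, Wilson interval 31.1 to 41.0). At the overlap threshold, the region inside with the smallest overlap lay near Neurod1, with 5.06% of its length covered by the less overlapping tissue, and the nearest outside lay at Sfxn2 with 3.09%. At the distance threshold, the region inside that lay farthest from a gene was in Kctd16 at 49838 bp, and the nearest outside lay 51840 bp from the nearer of Plrg1 and 1700028M03Rik.

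Scaled for depth, median tag rates were highest in ECCs and lowest in PNST cells. The median tag rate of the shared regions was 1.35 RPM in PNST cells, against 6.03 in ECCs and 2.25 in limb buds. The lowest rate among them was 1.59 RPM in ECCs, 0.592 in PNST cells and 0.537 in limb buds. The ECC minimum is set by depth and the calling threshold, and it lay above the PNST median. A shared region at or below that PNST median therefore could not show a lower ECC rate, which limits what the ratios to ECCs can show. The tag rate in PNST cells was at least 2-fold lower than in ECCs at 311 of the 354 regions (87.9%), and at least 2-fold higher at 4 regions (1.13%). Over all 650 placed PNST peaks with an ECC counterpart, 88.3% were lower and 0.615% were higher by this measure. The shared regions thus stood near this background, which includes the 354 shared regions themselves, as do the other backgrounds given here. Against limb buds, 104 shared regions (29.4%) were at least 2-fold lower in PNST cells and 6 (1.69%) were higher, where 18.5% and 2.03% of the 1133 placed PNST peaks with a limb bud counterpart were. Limb bud tag rates were at least 2-fold below ECC tag rates at 247 shared regions (69.8%) and at least 2-fold above at 2 (0.565%), against 73.4% and 1.08% of the 557 placed PNST peaks with counterparts in both. The median ratios were 0.233 for PNST over ECC, 0.706 for PNST over limb and 0.363 for limb over ECC. Each region is counted with the whole counterpart peak, whose length differs between tissues.

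**Figure D1:**
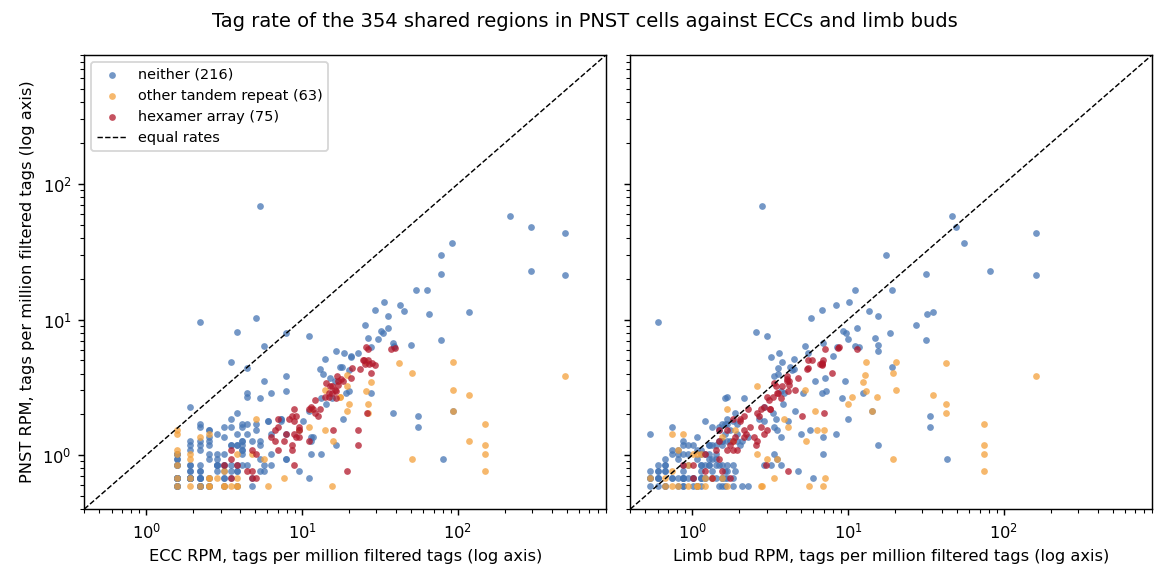
Tag rate of each shared region in PNST cells (vertical, RPM, log axis) against ECCs (left) and limb buds (right), with 1 point for each of the 354 regions, coloured by sequence kind, and a dashed line at equal rates. Most points lie below the line against ECCs, where 311 regions are at least 2-fold lower in PNST cells, and closer to it against limb buds, with a median ratio of 0.706.

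**Figure D2:**
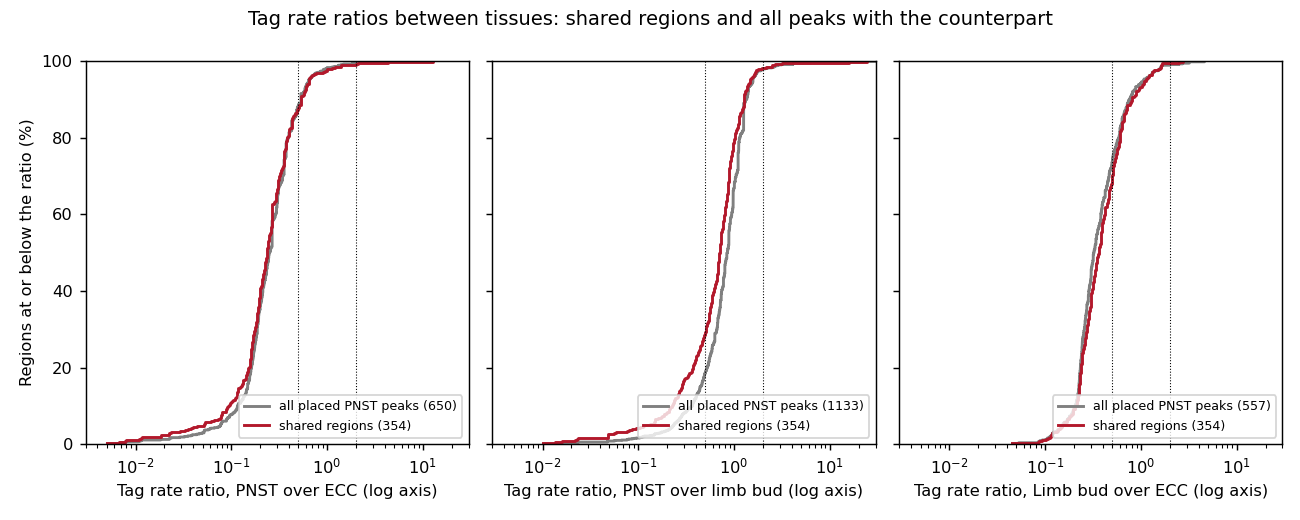
Cumulative share of regions (vertical, %) at or below each tag rate ratio (horizontal, log axis), with dotted lines at 2-fold lower and higher. Shared regions are red, and all placed PNST peaks with the counterpart, which include the shared regions, are grey. The curves run close together for PNST over ECC (medians 0.233 and 0.250), and the shared regions lie to the left for PNST over limb (0.706 and 0.853).

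Across the 354 regions, the order of the tag counts was alike in the 3 tissues. Spearman's rho was 0.841 between limb buds and ECCs, 0.740 between PNST cells and ECCs, and 0.722 between PNST cells and limb buds. For fold enrichment, rho was 0.873, 0.797 and 0.836 for the same pairs. These values are given as a description over 354 regions of 3 libraries. Regions in the same kind of sequence, or over the same counterpart peak, do not count independently: 45 regions shared their ECC peak with another region, and 30 their limb bud peak.

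By sequence, 75 of the 354 regions (21.2%, Wilson interval 17.3 to 25.7) held an array of at least 4 telomeric hexamers in a row. A further 63 (17.8%, 14.2 to 22.1) were other tandem repeats, in which at least 75% of the bases equalled the base a fixed step of up to 100 bp further on. The remaining 216 (61.0%) belonged to neither kind. None of the 3360 other PNST peaks near a gene held a hexamer array, and 402 of them (11.96%, 10.9 to 13.1) were other tandem repeats. Among 1685 limb bud peaks near a gene that were shared with ECCs and not with PNST cells, 12 held a hexamer array and 464 (27.5%) were other tandem repeats. The intervals of the hexamer share and of the tandem share thus did not overlap those of the other PNST peaks near a gene. The kinds differed in PNST over limb ratios. PNST tag rates were at least 2-fold below limb bud rates at 39 of the 63 tandem repeats (61.9%). This held for 9 of the 75 hexamer regions (12%) and 56 of the 216 remaining regions (25.9%). The share over all placed PNST peaks with a limb bud counterpart was 18.5%. These sequence kinds were defined after the sequences had been seen.

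The 75 hexamer regions were frequent among the shared regions of highest fold enrichment. All 10 regions with the highest PNST fold enrichment, and 36 of the highest 50, were hexamer arrays. By ECC fold enrichment 9 of the highest 10 and 40 of the highest 50 were, and by limb bud fold enrichment 9 and 41. The exception among the highest 10 was in both the region of Xcr1, which held no hexamer array and had the highest limb bud fold enrichment of all shared regions (167). Median fold enrichment of the hexamer regions was 57.7 in PNST cells, 115 in ECCs and 79.3 in limb buds, against 24.3, 47.0 and 31.3 in the 216 remaining regions and 18.2, 25.9 and 18.7 in the tandem repeats. Their median tag counts were 24 in PNST cells, 38 in ECCs and 44 in limb buds. Regions with more consecutive units held more tags, with a Spearman's rho over the 75 regions of 0.901 in PNST cells, 0.723 in ECCs and 0.720 in limb buds. The arrays in these regions had 4 to 18 consecutive units, with a median of 10.

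The region with the highest PNST fold enrichment lay in an intron of Kcnh1 and held 79 ECC tags, 87 limb bud tags and 59 PNST tags. The region between D430019H16Rik and Bdkrb2, a bradykinin receptor, held 66, 82 and 52 tags in the same order, and that near Stt3b, a catalytic subunit of oligosaccharyltransferase, held 88, 102 and 57. The longest array of the shared regions lay in an intron of Hsd11b1, which activates glucocorticoids, and held 124 ECC tags, 128 limb bud tags and 73 PNST tags. Dopey2 (81, 130 and 74 tags), Greb1 (92, 101 and 55), Gm5506 (84, 103 and 60), the ubiquitin ligase gene Nedd4l (45, 50 and 40) and 4921504E06Rik (49, 56 and 38) completed the 10 together with Ror2. Raw counts of these regions were thus of like size in the 3 tissues, although the ECC library was the shallowest.

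Over the whole set of placed chromosomes, mm9 holds 253 sites with a hexamer array of at least 4 units, when arrays within 200 bp of each other are counted as 1 site. ECC peaks overlapped 166 of these sites, limb bud peaks 167 and PNST peaks 144. The 144 sites in the PNST list were overlapped in all 3 tissues (56.9%, Wilson interval 50.8 to 62.9), and 73 of them coincided with shared regions near a gene. With 4 or 5 consecutive units, 2 of 61 sites were overlapped in all 3 tissues. With 6 or 7 units it was 10 of 50, with 8 or 9 units 54 of 59, and with 10 to 15 units 74 of 74. Of the 9 sites with 16 or more units, 4 were overlapped in all 3 tissues. At 17 sites of 4 to 9 units, peaks were present in ECCs and limb buds and absent from the PNST list.

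**Figure D3:**
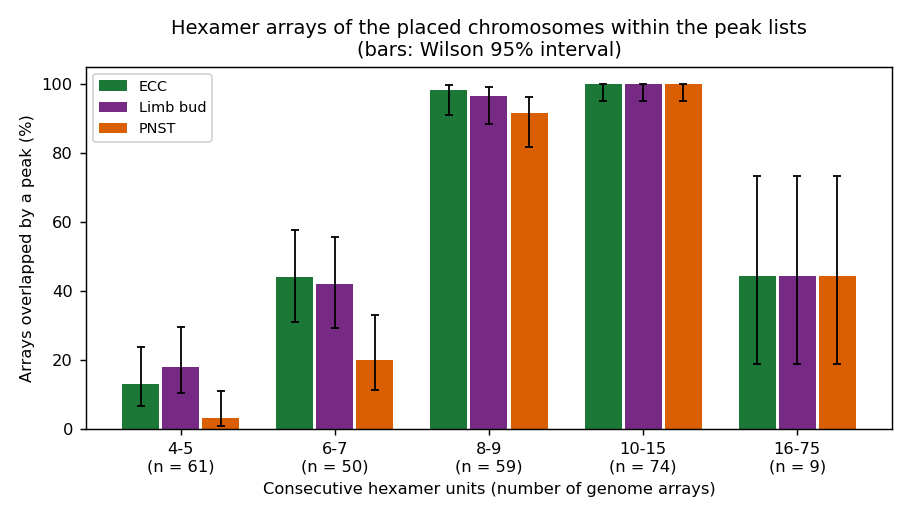
Share of hexamer array sites on placed mm9 chromosomes that a peak overlapped (vertical, %), by number of consecutive units (horizontal) and tissue, with Wilson 95% intervals. The share rises from 3.28% of 61 sites with 4 or 5 units in PNST cells to 100% of 74 sites with 10 to 15 units in each tissue, and is 44.4% of the 9 longest sites.

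E-boxes were less frequent in the shared regions than in other peaks near a gene. An E-box was present in 116 of the 354 regions (32.8%, Wilson interval 28.1 to 37.8), against 53.8% (52.1 to 55.5) of the 3360 other PNST peaks near a gene. The share was 41.1% (36.4 to 45.9) in the 404 PNST peaks near a gene that were shared with 1 other tissue, and 55.5% (53.7 to 57.3) in the 2956 shared with none. Within the shared regions, E-boxes were found in 12 of the 75 hexamer regions (16%, 9.40 to 25.9), in 8 of the 63 tandem repeats (12.7%, 6.58 to 23.1) and in 96 of the 216 remaining regions (44.4%, 38.0 to 51.1). Of the other PNST peaks of this last kind, E-boxes were in 48.3% of those shared with 1 tissue, inside the interval of the shared regions, and in 60.2% of those shared with none, above it. Side windows, reaching 50 bp around points 1 kb from the summit, held an E-box in 39.8% for the shared regions. For the other PNST peaks near a gene it was 40.5%. These windows compare with those of like size at the summit, at 24.6% and 41.1%, and not with whole regions. The base composition differed as well, with a median GC content of 50.7% in the shared regions and 41.4% in the other PNST peaks near a gene, and its part in the E-box shares was not tested.

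Within 50 bp of the PNST summit, E-boxes were present in 87 shared regions, or 24.6% (20.4 to 29.3), against 41.1% (39.4 to 42.7) of the other PNST peaks near a gene. The most frequent form in the shared regions was CACCTG or its complement CAGGTG, with 100 of 337 sites (29.7%) spread over 41 regions. This form made up 13.1% of the 3178 sites in the other PNST peaks near a gene and 27.2% of the 2185 sites in limb bud peaks shared with ECCs only. Counted by region, it was present in 11.6% of the shared regions, in 9.05% of the other PNST peaks near a gene and in 17.6% of the limb bud peaks shared with ECCs only. CACATG or CATGTG followed with 57 sites in 39 regions, and the palindromes CAGCTG and CATATG were present in 14 and 9 regions. Sites in 1 region are not independent, and a long region can hold many, as the 4676 bp region near Col19a1 with 16 E-boxes does. Of other short motifs, a CA repeat of 6 or more units was present in 7 shared regions (1.98%, 0.961 to 4.02) and in 0.893% (0.626 to 1.27) of the other PNST peaks near a gene, and these intervals overlapped.

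**Figure D4:**
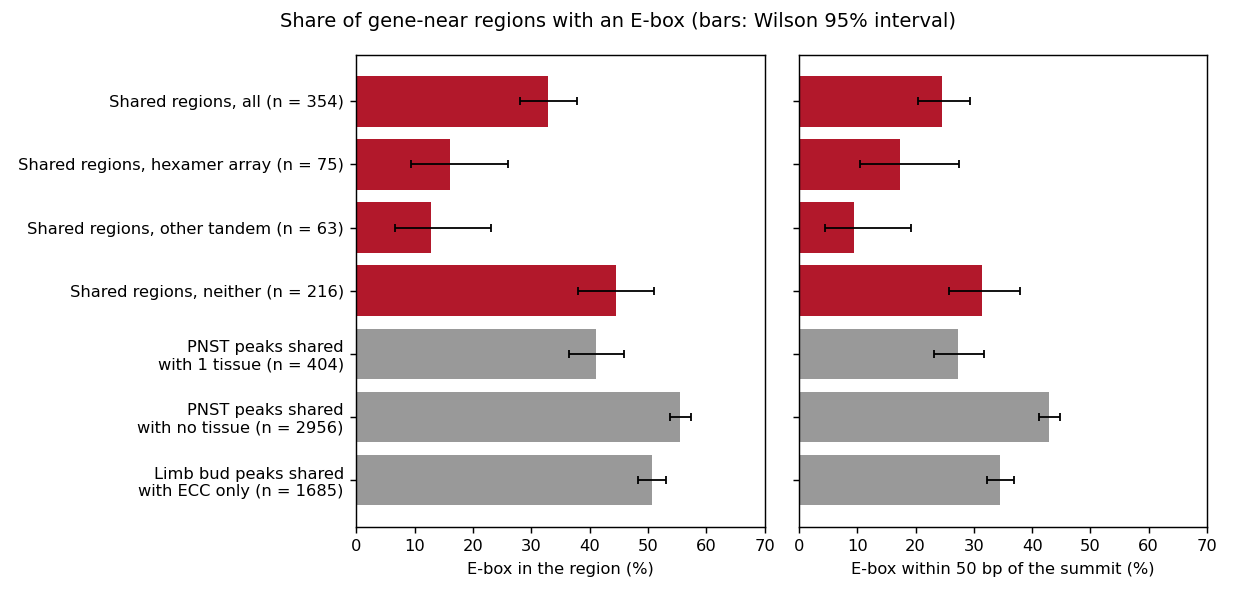
Share of regions near a gene with an E-box (horizontal, %), over the whole region (left) and within 50 bp of the summit (right), for the shared regions (red) and for 3 other groups of peaks (grey), with Wilson 95% intervals. The shared regions stand at 32.8% and 24.6%, with the hexamer arrays at 16% and the regions of neither kind at 44.4% over the whole region.

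The uniqueness of the sequence was measured by the number of exact copies in mm9 of the 32 bases around the PNST summit, on either strand. This word occurred once in 33 shared regions (9.32%, Wilson interval 6.71 to 12.8), against 89 of the 3360 other PNST peaks near a gene (2.65%, 2.16 to 3.25). It had 2 to 99 copies in 214 regions (60.5%) and 100 or more in 107 (30.2%, 25.7 to 35.2), where 51.6% (49.9 to 53.3) of the other PNST peaks near a gene had 100 or more. Of the 33 regions with a unique summit word, 17 held an E-box (51.5%, 35.2 to 67.5). How reads that map to several places were assigned is not given in the sources used here.

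Regions with a unique summit word included some of high tag count. Only the exact summit word was unique, and each region named here resembled another shared region. By blastn, each matched another at 80% identity or more over at least 50 bp. The region near Rpusd4, a mitochondrial pseudouridine synthase, held 685 ECC tags, 691 limb bud tags and 690 PNST tags, or 217, 46.4 and 58.4 RPM. The Cdk5rap2 region held 106, 151 and 159 tags, and the Pak3 region 92, 102 and 138. Near Dpy19l2 and Dpy19l1 the counts were 35, 45 and 89, and in Apool 25, 145 and 94. The region of Btbd16 and Plekha1, an adaptor with pleckstrin homology domains, held 55, 63 and 53 tags and a fold enrichment of 67.2, 46.6 and 91.2. At Pak3 and Cdk5rap2 the PNST counts were thus above the limb bud counts, although the limb bud library was the deeper.

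Many of the 216 regions of neither kind resembled one another. By blastn with at least 80% identity over at least 50 bp, 159 of them (73.6%, Wilson interval 67.4 to 79.0) matched another shared region of this kind. The share was 64.4% (58.9 to 69.4) within the PNST peaks near a gene shared with 1 tissue and 25.4% (23.8 to 27.1) within those shared with none. Matches are easier to find in larger groups, and the last group was the largest. Linked by such matches, the 216 regions formed 17 groups of 2 or more regions, and 57 regions stood alone.

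The largest group had 38 regions, with median counts of 42.5 ECC tags, 48.5 limb bud tags and 37.5 PNST tags. It held the regions of Jarid2, a component associated with Polycomb repressive complex 2, of Filip1l, Arhgap21, Csmd3, Cd44 and Spata5, and E-boxes in 11 of the 38. The 8 regions with the word shown for Csmd3 belonged to it. This word had 14 copies in mm9 and was in none of the other groups of peaks near a gene, and its 8 regions held medians of 107 ECC tags, 133 limb bud tags and 88.5 PNST tags with no E-box. The 7 regions with the word shown for Wdr92 (8 copies in mm9) lay near Wdr92, Gphn, Hrh2, Atp5g1 and Calcoco2, Cyp2c50 and Cyp2c70, Tra2a and Igf2bp3, and Lars2 and Limd1. They had median counts of 19, 43 and 21 tags, and 1 of them held an E-box. Both words are known from the 28S ribosomal RNA of mammals, which is given as background, since no ribosomal sequence was compared here.

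The second group had 34 regions with medians of 7.5 ECC tags, 17.5 limb bud tags and 10 PNST tags. It included the regions of Litaf, Cdk5rap2, Chl1, a neural cell adhesion molecule, Nlk, Sos2, a Ras exchange factor, Foxn3 and Rictor, a subunit of the TOR complex. The third group had 25 regions with 10, 15 and 10 tags, among them those of Bmp5, a bone morphogenetic protein, Sox3 and Gabrq. Its most common word (shown for Spata17) has 41300 copies in mm9. The word shown for Mospd3, which has 378 copies, belongs to the second group. Of these 3 groups, the first had the highest median count in each tissue.

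The 5 genes that the study names for regions of all 3 tissues each had 1 shared region. The Ror2 region lay in an intron, 15875 bp from the nearest gene end given in the list, and held 78 ECC tags, 83 limb bud tags and 59 PNST tags. Its tag rates were 24.8 RPM in ECCs (exact Poisson interval 19.6 to 30.9), 5.57 RPM in limb buds (4.44 to 6.91) and 4.99 RPM for PNST cells (3.80 to 6.44). The limb bud and PNST intervals overlapped, and the ECC interval lay above both. The ECC, limb bud and PNST fold enrichments were 133, 115 and 127, and all 3 peaks held the same hexamer array with no E-box.

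The Litaf region held 44 ECC tags, 67 limb bud tags and 61 PNST tags, with fold enrichments of 122, 91.3 and 113. It lay in an intron, its summit word had 99 copies in mm9, and no E-box was present in any of the 3 peaks. The Spata5 region, also intronic, held 32, 18 and 21 tags with fold enrichments of 72.6, 47.0 and 50.9, and again no peak held an E-box. It was 1 of the 8 regions with the word shown for Csmd3. At Litaf and Spata5 the tag rate in PNST cells was 1.15 and 1.47 times that in limb buds, and 0.369 and 0.175 times that in ECCs.

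The Cd44 region lay in an intron, 753 bp from the nearest gene end, and held 15 ECC tags, 29 limb bud tags and 15 PNST tags. It was the only one of the 5 with E-boxes in the PNST peak, of which there were 2, and 1 of them lay in the 130 bp common to the 3 peaks. The ECC, limb bud and PNST fold enrichments of this region were 115, 65.2 and 42.5. The Chst11 region lay 30234 bp from the gene and held 37, 55 and 16 tags. Its PNST peak had no E-box, while the longer ECC and limb bud peaks held 1 each outside it. The tag rate of Chst11 in PNST cells was 0.115 times that in ECCs and 0.366 times that in limb buds, the lowest of the 5 genes for both.

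**Figure D5:**
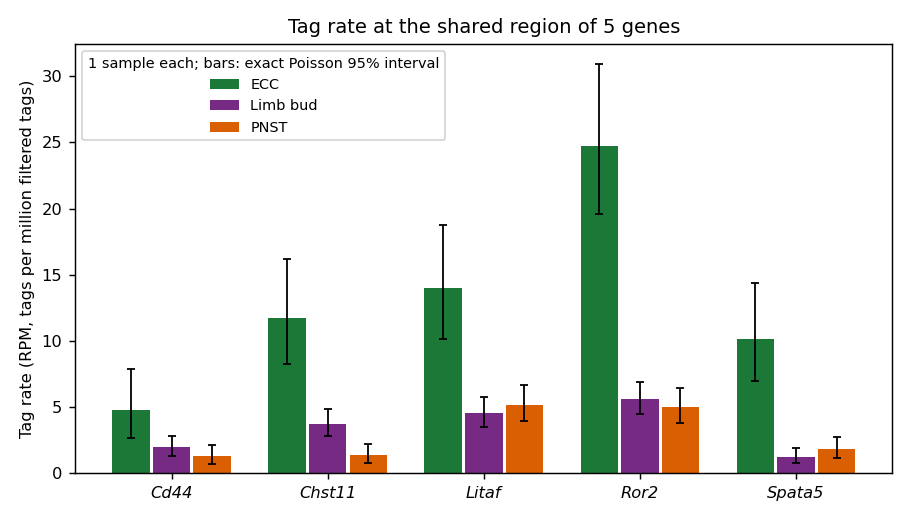
Tag rate (vertical, RPM) of the shared region of Cd44, Chst11, Litaf, Ror2 and Spata5 in each tissue, with 1 sample each and exact Poisson 95% intervals as bars. ECC rates are the highest at each gene, from 24.8 at Ror2 downward, and the limb bud and PNST intervals overlap at 4 of the 5 genes.

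Of the 10 regions with the highest tag rates summed over the tissues, 5 were tandem repeats, and the Rpusd4 region with its unique summit word was also among them. All 3 regions near Smok4a lay under the same ECC peak of 1541 tags and the same limb bud peak of 2406 tags, and held 252, 45 and 518 tags in PNST cells. Both regions between Gm15319 and 6820431F20Rik lay under an ECC peak of 923 tags, with 1214 and 736 limb bud tags and 269 and 571 PNST tags. The 4 regions between Tmem125 and Wdr65 lay under an ECC peak of 472 tags and a limb bud peak of 1109 tags and held 9 to 20 tags in PNST cells. These 4 gave the lowest PNST over limb ratios, from 0.0102 to 0.0227, together with a region near the mucin gene Muc19 (253, 641 and 11 tags, ratio 0.0216). PNST over ECC ratios were lowest at 3 of the same Tmem125 regions, at Smok4a (0.00778) and at Smo, the signal transducer of the Hedgehog pathway (372, 80 and 15 tags, ratio 0.0107). In each of these regions of lowest ratio, the counterpart peak was longer than the PNST peak, so the ratio compares unequal lengths.

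The 4 regions in which the PNST tag rate was at least 2-fold above the ECC rate were near Col19a1, Myo3a, 4930468A15Rik, and Speer4d and Speer7-ps1. The Col19a1 region held 17 ECC tags, 42 limb bud tags and 813 PNST tags, a ratio of 12.7 to ECCs and 24.4 to limb buds. Myo3a, which encodes an unconventional myosin, had a region of 7, 9 and 114 tags, with ratios of 4.34 and 15.96. Both regions matched the mitochondrial genome over nearly their whole length, at 99.4% and 100% of it, as did the region of 17 PNST tags next to Mtrnr2l (9 tags in ECCs and 8 in limb buds). The 4930468A15Rik region held 12, 38 and 95 tags, with ratios of 2.11 and 3.15, and did not match the mitochondrial genome. The PNST peaks near Col19a1 (4676 bp), Myo3a (912 bp), and Speer4d and Speer7-ps1 (1455 bp) were longer than their counterparts. The ECC counterpart covered 10.2%, 17.8% and 29.7% of them in this order, so their ratios compare unequal lengths. At Myo3a, the ECC peak and the limb bud peak did not overlap each other. Mtrnr2l (ratio 2.68), Dpy19l2 and Dpy19l1 (2.49), and Cyp2b19 and Cyp2g1 (2.18) were the other regions at least 2-fold above limb buds.

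The 2 regions with limb bud rates at least 2-fold above ECC rates were tandem repeats. An intronic region of Pde5a, a cGMP phosphodiesterase, held 8 ECC tags, 103 limb bud tags and 7 PNST tags. That of the transporter gene Abca17 held 9, 106 and 8 tags. Both PNST counts were thus at or next to the minimum of 7 tags.

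Some of the shared regions lay close together. Joined at 10 Kb, the 354 regions formed 309 clusters, of which 27 had more than 1 region and together held 72. Mid1 had the most regions of any gene, with 11 on chromosome X between 166424066 and 166444564, and 10 of these were tandem repeats. The Mid1 regions held 44 to 132 ECC tags, 39 to 633 limb bud tags and 18 to 57 PNST tags. Zfp825, a zinc finger gene, had 6 regions with 122 to 295, 164 to 302 and 25 to 76 tags. Speer4d and Speer7-ps1, of a gene family expressed in the testis, had 4 regions each. In all, 36 gene names stood beside 2 or more regions and 12 beside 3 or more. With 1 region kept for each cluster, that of most PNST tags, the median PNST over ECC ratio was 0.248 in place of 0.233. The share at least 2-fold lower in PNST cells than in limb buds was then 23.6% in place of 29.4%.

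By distance, the median shared region lay 7348.5 bp from the nearest gene, and 141 regions (39.8%, Wilson interval 34.9 to 45.0) lay within 5 kb, against 32.8% (31.2 to 34.4) of the other PNST peaks near a gene. By annotation (protein-coding transcripts of GENCODE vM1), 175 summits were in introns (49.4%, 44.3 to 54.6), 10 in exons, 3 within 1 kb upstream of a start site and 166 outside genes (46.9%). The other PNST peaks near a gene had 47.6% (46.0 to 49.3) in introns, within the interval of the shared regions. Of the hexamer regions, 47 of 75 lay in introns (62.7%, 51.4 to 72.7). The 3 promoter regions lay near Rps29 and Lrr1 (25 ECC tags, 10 limb bud tags and 11 PNST tags), Oasl1 and Oasl2 (5, 13 and 12) and Crebzf and Ccdc89 (12, 20 and 14).

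The regions nearest to a gene lay 11 bp from Mtrnr2l, 18 bp from Pisd-ps1 and 61 bp from the end given for Eef2, the translation elongation factor. The Pisd-ps1 region held 205 ECC tags, 479 limb bud tags and 129 PNST tags, and the exonic Eef2 region 10, 27 and 8. The region at Lars2, the mitochondrial leucyl-tRNA synthetase, and Limd1 held 112, 232 and 125 tags. Rsph3b (25, 74 and 17 tags) and Rsph3a (10, 34 and 7), both named for a radial spoke protein of cilia, had regions 159 and 191 bp away. The disulfide isomerase gene Pdia3 (9, 24 and 9 tags) and the granzyme gene Gzmk (21, 22 and 15) followed at 200 and 241 bp. The Eef2, Rsph3a and Pdia3 regions were within 2 tags of the PNST minimum of 7.

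Of the 368 gene names, 6 were Wnt pathway genes (1.63%, Wilson interval 0.749 to 3.51), where 17 of the 3440 genes near any PNST peak were (0.494%). Wnt7b, a ligand, had a hexamer region with 25 ECC tags, 33 limb bud tags and 17 PNST tags. The receptor gene Ror2 is described above. Nkd1, an inhibitor that binds Dishevelled, also had a hexamer region, with 11, 15 and 8 tags. The other 3 genes encode kinases. These were Csnk1e, whose region is shared with the potassium channel gene Kcnj4 (6, 23 and 8 tags), Nlk, which acts on TCF and LEF factors (7, 10 and 9), and Hipk2 (5, 11 and 12). Hexamer arrays were present in 3 of the 6 regions and E-boxes in 2, those of Nlk and Hipk2.

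Adhesion, matrix and migration genes numbered 16 (4.35%, 2.69 to 6.95), against 3.43% of the genes near any PNST peak. Their regions had median counts of 16.5 ECC tags, 35.5 limb bud tags and 17 PNST tags. Beside Cd44 and Chst11 these were the cadherin genes Cdh18 (6, 25 and 8 tags), Cdh23 (7, 23 and 8) and Pcdh20 (15, 20 and 8), and the neural adhesion genes Chl1 (247, 260 and 351), Cntnap4 (5, 8 and 7), Lrrn3 (58, 62 and 42), Igsf1 (5, 8 and 8) and Dcc, a netrin receptor (7, 13 and 7). Among the matrix genes and their receptors were Lama1, a laminin chain (87, 117 and 48), Col6a6 (43, 53 and 47), Col19a1, the sulfotransferase gene Chst2 (80, 101 and 56), the integrin gene Itga9 (16, 26 and 18) and the semaphorin receptor gene Plxnc1 (48, 51 and 38). Of the 16 regions, 5 were hexamer arrays, and 7 held an E-box. The Chl1 region had the most PNST tags of these next to Col19a1.

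Transcription factor and chromatin genes numbered 17 (4.62%, against 4.53% of the genes near any PNST peak) with 23 regions, of which 4 were hexamer arrays and 3 held an E-box. Developmental factors among them were Tbx3, a T-box repressor (7, 21 and 8 tags), Sox3 (12, 17 and 9), Foxn3 (5, 15 and 8) and Neurod1 (7, 9 and 9). The cardiac homeobox gene Nkx2-6 had 2 hexamer regions, with 84, 106 and 72 tags and with 37, 41 and 26. Esr1, the estrogen receptor alpha gene, had a hexamer region of 15, 23 and 9 tags. Signal-dependent factors were Stat4 (5, 14 and 10) and Atf2 (23, 25 and 22). Further members were Crebzf, Setd4, Zfp185, Zfp263, Zfp746, Zfp791, Zfp825 and Zscan2.

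Kinases, phosphatases, small GTPases and their regulators numbered 16 (4.35% against 4.22%), and 8 of their 18 regions were hexamer arrays. Median counts were 38 ECC tags, 56.5 limb bud tags and 20.5 PNST tags, the highest ECC and limb bud medians of the gene lists. Examples were Flt1, a VEGF receptor (40, 75 and 23), Map2k6, a kinase upstream of p38 (52, 55 and 31), Ptprm, a receptor tyrosine phosphatase (30, 41 and 19), Ppp2r2b (54, 60 and 42), Cdk8, a kinase of the Mediator complex (49, 137 and 31) and Sos2 (5, 17 and 8). The 18 genes of ion channels, transmitter receptors and transporters (4.89% against 5.09%) had lower medians of 9, 25.5 and 12 tags. Kcnh1, the glutamate receptor gene Gria1 (38, 39 and 24) and Rims1 (44, 45 and 32) were hexamer regions among them. Immune genes numbered 13 (3.53% against 2.62%), with medians of 30, 55 and 19 tags, and included the chemokine receptor gene Xcr1 (35, 68 and 25 tags).

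Chemosensory receptor genes made up 10 of the 368 names (2.72%, Wilson interval 1.48 to 4.93), where 7.33% of the genes near any PNST peak belonged to this family. The interval lay below the background share, but the 10 names stood beside 6 regions and do not count independently. The names were Olfr740, Olfr741, Olfr805, Olfr806, Olfr1107, Olfr1109, Olfr1274-ps, Taar6, Taar7a and Vmn2r77, and their regions had medians of 12, 23 and 12 tags. The 6 ubiquitin pathway genes (1.63% against 2.03%) were Fbxw4, Hecw1, Nedd4l, Psma8, Trim30a and Usp53. Small RNA genes were Mir1196 and Rn4.5s, and 37 names (10.1% against 12.1%) were predicted or clone-named genes. The remaining 227 names (61.7% against 57.4%) belonged to no list, and their regions had medians of 18, 30 and 15 tags.

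Among the genes in no list were several with roles in development or tumors. Smo had 3 regions under an ECC peak of 372 tags, with 33, 134 and 15 tags in PNST cells. Bmp5 had a region with 7 ECC tags, 23 limb bud tags and 20 PNST tags. The Hippo pathway kinase gene Lats2 (5, 28 and 18 tags), Nf2, the merlin tumor suppressor, in the region it shares with Nipsnap1 (5, 13 and 8), and Rictor (5, 17 and 10) had weak regions in ECCs. Jarid2 had 2 regions under an ECC peak of 121 tags, with 49 and 103 limb bud tags and 24 and 79 PNST tags. Tcfap2b and Tcfap2d, which encode AP-2 factors and were not in the factor list under these names, had a hexamer region of 28, 34 and 26 tags. Mkx, a homeobox gene of tendon cells, had a hexamer region of 65, 71 and 44 tags. These genes were picked after their values were seen and are given as examples.

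Genes that the study tested with primers and that had a shared region included, beyond those above, Tmem18 (55 ECC tags, 230 limb bud tags and 32 PNST tags) and Abhd6 (49, 52 and 34). The Abhd6 region was a hexamer array, and that of Tmem18 a tandem repeat. Of the 12 genes in this group, Nlk, Cd44, Hipk2 and Mid1 had at least 1 region with an E-box. The study presents its regions of Sos2, Tmem18 and Abhd6 as limb-specific. By ChIP-qPCR it found them bound in limb buds and not in ECCs or PNST cells. Matched in mm9 by exact sequence, the products of the printed primers lay 1156713 bp (Sos2), 684403 bp (Tmem18) and 832414 bp (Abhd6) from the regions described here. For Abhd6 this is 1 of 2 products. By these positions, the qPCR results do not concern the regions described here.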

How the data were processed

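Each tissue gave 1 Twist1 ChIP-seq sample, and the authors deposited 1 MACS peak list for each. Reads of 50 bp were mapped to mm9 with Bowtie per the labels. The authors called peaks with MACS 1.4.2. Per the file headers the p-value limit was 1.00e-05, the band width 300 bp, the range of the local background 10000 bp and the number of tags kept for each position 1. The headers give "None" as control, whereas genomic DNA of FVB/N mice is described as the control in the methods. For each peak the authors deposited a count of tags, not normalized for depth, a p-value as 10 times its −log10, a fold enrichment (ratio of summit tags to the local background), and lengths, summits and gene distances in bp.

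Overlaps, tag rates, sequence classes and locations were computed from the lists and mm9 with Python 3.11.15, numpy 2.4.6, pandas 2.3.3, scipy 1.17.1, pysam 0.24.0, numba 0.67.0, blastn 2.17.0 and GENCODE vM1, and figures were drawn with matplotlib 3.10.9. The overlap, motif and array code was tested on simulated regions. Shares carry Wilson intervals and tag counts exact Poisson intervals. E-boxes and hexamers were searched on both strands as exact matches.

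The regions and gene lists were chosen with earlier results of these data known, and sequence kinds, shared words and likeness groups after the sequences had been seen. Genes are named when the study gives them for all 3 tissues or tested them with primers, when they are among the 10 regions of most tags, highest PNST fold enrichment or smallest distance, among the 5 of highest or lowest PNST ratios, on a gene list, or beside 2 or more regions. Expression lists were not used here, and a few items that these rules name are not reported here. With 1 sample for each tissue and regions chosen on the measured positions, no test was made. Alternatives were a p-value of 1e-10, a fold enrichment of 20, a reciprocal overlap of 50%, a limit of 10 Kb, tags before the duplicate filter and tags for each 100 bp, other E-box windows, and only unique summit words. Leaving out sequence kinds or counterpart peaks that overlap more than 1 region was added after seeing the data.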

Additional observations from a re-analysis of the deposited data

How the results depend on the processing

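No paired analysis was possible because each tissue has 1 sample, and for the same reason no replicate could be left out. Median tag rate ratios stayed below 1 under each alternative tried, and none of these lifts the calling threshold of the lists. A p-value of 1e-10 in each list left 199 regions and 212 genes, with ratios of 0.211 (PNST over ECC) and 0.302 (limb over ECC), E-boxes in 26.6% and CA repeats in 0.503%. A fold enrichment of at least 20 left 225 regions, with 0.741 for PNST over limb, 0.309 for limb over ECC, E-boxes in 26.7% and CA repeats in 0.444%. A reciprocal overlap of 50% left 214 regions, with PNST ratios of 0.266 to ECCs and 0.775 to limb buds. A limit of 10 Kb left 216 regions and 198 genes, with 60.6% in introns. Unique summit words left 33 regions and 40 genes, with a PNST over ECC ratio of 0.304, E-boxes in 51.5%, CA repeats in 0% and 42.4% in introns. The values above were 354 regions, 368 genes, ratios of 0.233, 0.706 and 0.363, E-boxes in 32.8%, CA repeats in 1.98% and 49.4% in introns.

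Tags before the duplicate filter gave ratios of 0.298, 0.772 and 0.423 for PNST over ECC, PNST over limb and limb over ECC, and tags for each 100 bp gave 0.303, 0.777 and 0.386. E-boxes were in 24.6% of 100 bp windows around the summit. In the sequence common to the 3 peaks, they were in 25.6% of the 348 regions that have such a sequence. Of the alternatives added after seeing the data, leaving out hexamer regions gave 0.266 for PNST over ECC and 0.423 for limb over ECC. Leaving out tandem repeats as well gave 0.296, 0.740 and 0.408, E-boxes in 44.4%, a repeated summit word in 86.1%, CA repeats in 0.926% and 43.5% in introns. Leaving out counterpart peaks that overlap more than 1 region gave 0.258 for PNST over ECC. The limits are those of depth and sample number: regions under 5 tags in ECCs, 8 in limb buds or 7 in PNST cells could not enter, ECC tags were the fewest, and a difference between tissues cannot be told apart from a difference between libraries.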

Other observations

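The limb bud peak with the most tags (4302, on chromosome 17 from 39979942 to 39985845) was matched in sequence by 4 shared regions on other chromosomes and by none of the 3360 other PNST peaks near a gene. Among these were the regions of Gnb1l (132 of 185 bp at 100%), Fam163b (81 of 94 bp at 97.5%) and Chst11 (110 of 121 bp at 95.5%). In this order they held 30, 14 and 37 ECC tags, 85, 22 and 55 limb bud tags, and 18, 10 and 16 PNST tags. What these copies contribute to the tags of each region was not tested.

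The primer pairs that the study lists for genes with a shared region were looked up in mm9 by exact match. The product of the Litaf pair lay 29 bp from the shared region of that gene. The products of the other 12 pairs lay farther from the shared region of their own gene, from 37940 bp (the second Ror2 pair) and 50064 bp (Hipk2) to 3562140 bp (Mid1), with 100744 bp for Spata5, 159725 bp for Cd44 and 537402 bp for Chst11. No peak of any of the 3 lists covered a product, with 1 product taken for each pair. Not every primer matched at 1 place. The Abhd6 reverse primer had 2140432 matches, the Chst11 forward primer 6916 and the Tmem18 reverse primer 198. The Abhd6 pair gave 2 products, and the Chst11 and Tmem18 pairs 1 each. Whether the printed primers or the positions of the lists account for these distances was not tested.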
